A study of Bos taurus with 6 samples.

Results

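The respiratory chain and the ATP synthase of mitochondria are built from subunits of which most are encoded in the nucleus and the rest in the mitochondrial genome. Rows of the expression table were taken when their gene symbol named a nuclear structural subunit, with NDUFA, NDUFB, NDUFC, NDUFS and NDUFV symbols for complex I (assembly factors named NDUFAF left out), SDHA to SDHD for complex II, UQCR symbols and CYC1 for complex III, COX4 to COX8 symbols for complex IV and ATP5 symbols for complex V. This gave 83 of the 36075 rows, of which 20337 carry a symbol: 38 for complex I, 4 for complex II, 8 for complex III, 15 for complex IV and 18 for complex V. The rule uses gene symbols and no measured value. No row carried the symbols NDUFA13, UQCR10, COX6B1 or COX7C, which also name nuclear subunits. Counts, sums and rankings per complex leave these genes out.

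RNA was measured in bovine blastocysts, the embryo stage that precedes implantation, obtained by in vitro production from oocytes of slaughterhouse ovaries. In the MT-treated group the oocytes had been matured for 22 h in medium with 1e-07 mol/L melatonin (MT), an indole hormone that acts as an antioxidant, and in the control group in medium without it; MT was in the maturation medium, not the later culture. Each group had 3 libraries, and per the study's methods each library was a pool of 3 blastocysts and the pools of a group came from separate production runs. The comparison asks how the blastocyst transcriptome differs after MT in oocyte maturation.

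Complex I oxidises NADH and complex II oxidises succinate, and both pass electrons to ubiquinone, from which complex III hands them to cytochrome c and complex IV to oxygen. Complexes I, III and IV pump protons, and complex V lets the protons back to make ATP. In mammals the embryo turns from the mitochondria inherited with the oocyte to a rising use of oxidative phosphorylation around the blastocyst stage, and the subunits of one complex are needed in fixed proportions in the protein.

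Values are TPM, a measure of transcript abundance in which reads are divided by gene length and then set against the library's sum, so levels can be set side by side between genes. TPM holds no counts, so the depth behind them cannot be read from the values. Per the paper, depth is among its reported quality metrics, which were not used here. The MT-treated libraries listed 14372 to 14408 genes above 0 and the control libraries 8854 to 8953, and among the 11953 tested genes (1 TPM or more in 3 or more of the 6 libraries) 33.8% were at 0 in all control libraries. Of the markers of the blastocyst, the trophectoderm keratins KRT8 and KRT18 lay between 2726 and 8828 TPM in every library and POU5F1, of the inner cell mass, between 188 and 194 TPM, but CDX2 and NANOG, which define trophectoderm and inner cell mass, were listed at 0 in all control libraries and at 15.0 to 17.2 and 8.23 to 8.93 TPM after MT. Among all tested genes 61.6% were higher and 34.1% lower after MT, which is the background for the marker counts. Marker counts and sums are on the deposited scale unless said otherwise. Summed over each marker list, trophectoderm genes (9 higher and 4 lower of 13 tested) lay at 11996 to 12336 TPM in control and 11074 to 11423 TPM in MT-treated libraries, and inner cell mass genes (3 higher and 4 lower of 9) at 656 to 665 and 495 to 498 TPM. Hypoblast genes (5 higher and 1 lower of 6) summed to 469.8 to 474 and 505 to 511 TPM with GATA6 under 1 TPM in control, and markers of the sperm (0 higher and 2 lower of 2) to 91.5 to 98.5 and 8.06 to 9.29 TPM. Of 11 rows for cumulus and granulosa cell markers, 2 were tested, FSHR and CYP11A1, with a sum over the list of 96.1 to 97.7 and 96.9 to 99.5 TPM, and 12 maternal oocyte transcripts summed to 0 in control and 1.25 to 1.64 TPM after MT. After median centring, described below, the calls were 10 higher and 3 lower for trophectoderm and 5 and 3 for inner cell mass genes. Hypoblast genes then had 6 higher and 0 lower, beside 70.4% and 25.4% among all tested genes. The marker sums were not rescaled, so their direction holds for the deposited scale only. The part of these marker differences in the results below was not tested. In bulk RNA, fewer cells of a type and less RNA per cell cannot be told apart.

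Nearly all of the respiratory chain subunits taken here were listed above 0 in both groups. Of the 83 genes, 77 were above 0 in all 6 libraries, 3 were at 0 in all of them (COX4I2, COX6A2 and NDUFA4L2), and 79 were tested. The 3 others were the testis isoforms COX6B2 and COX7B2 and the muscle isoform COX7A1, each at 0 in every control library and above 0 in every MT-treated library. COX6B2 and COX7B2 passed the filter through the MT-treated group alone and therefore had to differ. So 2 of the 79 tested subunits were at 0 throughout control, beside 33.8% of all tested genes. Among the 1311 tested genes with a mean of 100 TPM or more, which is a closer match in level, 2 genes were.

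In MT-treated blastocysts 34 of the 79 tested subunits were higher and 34 lower than in control, and 11 were not called (limma on log2(TPM + 1), Benjamini-Hochberg adjusted p under 0.05). Among all tested genes, as given above, 61.6% were higher and 34.1% lower, and among tested genes with a mean of 100 TPM or more 35.9% were higher and 56.7% lower. The groups did not overlap for 68 of the 79 subunits, and 68 were called in either direction, while among all tested genes 96.1% did not overlap and 95.7% were called. The spread between libraries was small, so small differences were called. The limma p-values are set against this spread. Whether it holds the full variation between embryos and production runs could not be told from the values. The median coefficient of variation of the subunits between libraries was 1.39% for control and 1.86% for MT-treated pools, over the 77 above 0 in all libraries, with NDUFA3 the most variable of these at 7.66% and 7.08%. The median size of the log2 fold change was 0.27 for the subunits, 1.98 for all tested genes and 0.45 for tested genes of 100 TPM or more. It stayed under 0.5 for 59 subunits, or 74.7%, as against 16.7% of all tested genes and 53.2% of those of 100 TPM or more. These sizes are on the deposited scale. After centring each library on its median, described below, the median size was 0.48 for the subunits, 2.17 for all tested genes and 0.51 for those of 100 TPM or more, and it stayed under 0.5 for 41 subunits, or 51.9%, as against 16.6% and 49.2%.

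**Figure D1:**
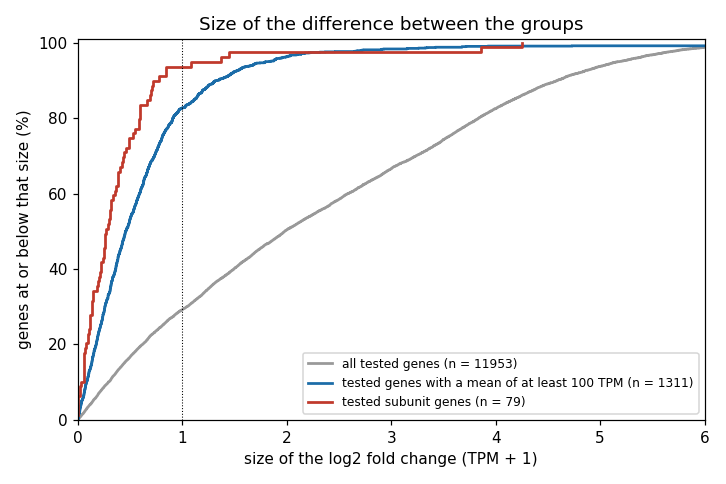
Cumulative share of genes (vertical axis, percent) at or below each size of the log2 fold change of TPM + 1 between MT-treated and control blastocysts (horizontal axis), for all 11953 tested genes, the 1311 with a mean of at least 100 TPM and the 79 tested subunits; the dotted line marks a log2 fold change of 1. The subunit curve rises first, with a median of 0.27, and its last 2 steps are COX6B2 and COX7B2, which were at 0 in control.

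Differences of 2-fold or more on the deposited scale were met by 3 subunits that were higher, ATP5MC2, COX6B2 and COX7B2, and by 2 that were lower, NDUFA8 and UQCRH, whereas 51% of all tested genes were higher and 19.6% lower by that measure (4.81% and 12.5% of those of 100 TPM or more). After median centring 10 subunits were higher and 0 lower by that measure, beside 55.7% and 14.3% of all tested genes. Across the 77 subunits above 0 everywhere, the group means of log2(TPM + 1) had a Pearson correlation of 0.95 across genes. It was 0.55 across all tested genes and 0.76 across those of 100 TPM or more. The sets differ in their filter, as all tested genes include 4037 at 0 throughout control and 360 at 0 throughout MT-treated libraries. Among those of 100 TPM or more, 2 and 6 genes were. No correlation was computed for all genes above 0 everywhere. These are correlations across genes, which share libraries and are not replicates.

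**Figure D2:**
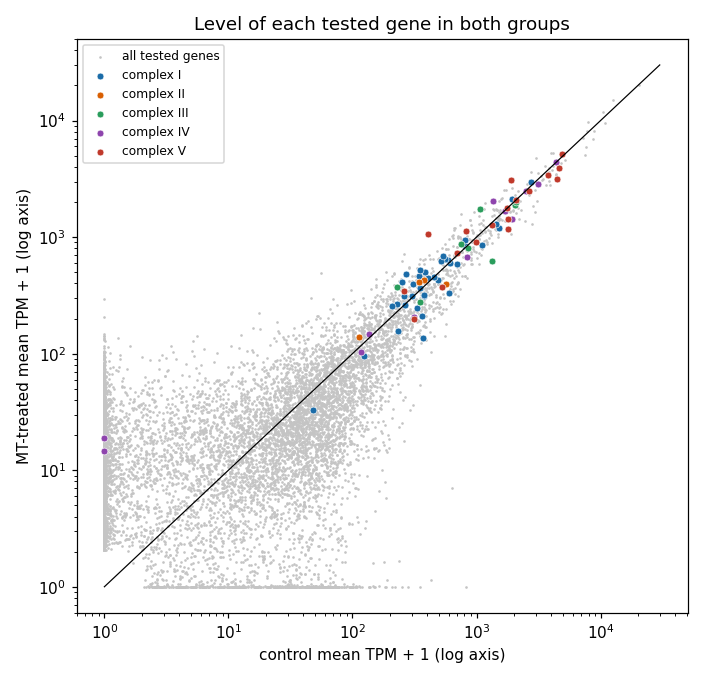
Mean TPM + 1 of each tested gene in control (horizontal, log axis) and MT-treated blastocysts (vertical, log axis), with 3 libraries a group; grey points are all 11953 tested genes, coloured points the 79 tested subunits by complex, and the line marks equal levels. The subunits lie along the line between about 32.1 and 5138 TPM, apart from COX6B2 and COX7B2 at the left edge, where many grey genes also stand at 0 in control.

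Directions depended on how the libraries were scaled. The deposited TPM of the listed genes sum to less in the MT-treated libraries, and genes of 1 TPM or more in all 6 libraries lay lower there, so that centring each library on the median of those genes moved every subunit up by 0.48 on the log2 scale. Rescaling to equal totals moved the subunits by 0.037 and quantile normalization by a median of 0.099. After median centring 65 subunits were higher and 9 lower (70.4% and 25.4% among all tested genes), after quantile normalization 40 and 28, and with equal totals 39 and 32. Called in either direction among all tested genes were 11218 of 11953 after quantile normalization and 11446 of 11956 with equal totals. Shares by direction were not computed for these scalings, so their counts are a description. Under all 4 scalings 33 subunits were higher and 9 lower, beside 52.9% and 25.4% of all tested genes. Among those of 100 TPM or more, 35.6% were higher and 29.2% lower under all 4. The other 37 subunits depended on the scaling, and 30 of them changed sign. The share of all tested genes that changed sign was not computed. The 9 subunits that stayed lower were NDUFA8, NDUFS3, NDUFA10 and NDUFV1 of complex I, SDHB of complex II, UQCRH of complex III, COX7B of complex IV, and ATP5ME and ATP5PD of complex V. Which of these scalings is nearest to RNA per cell cannot be told from the table, whereas ratios between subunits of one library do not depend on total or median scaling.

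**Figure D3:**
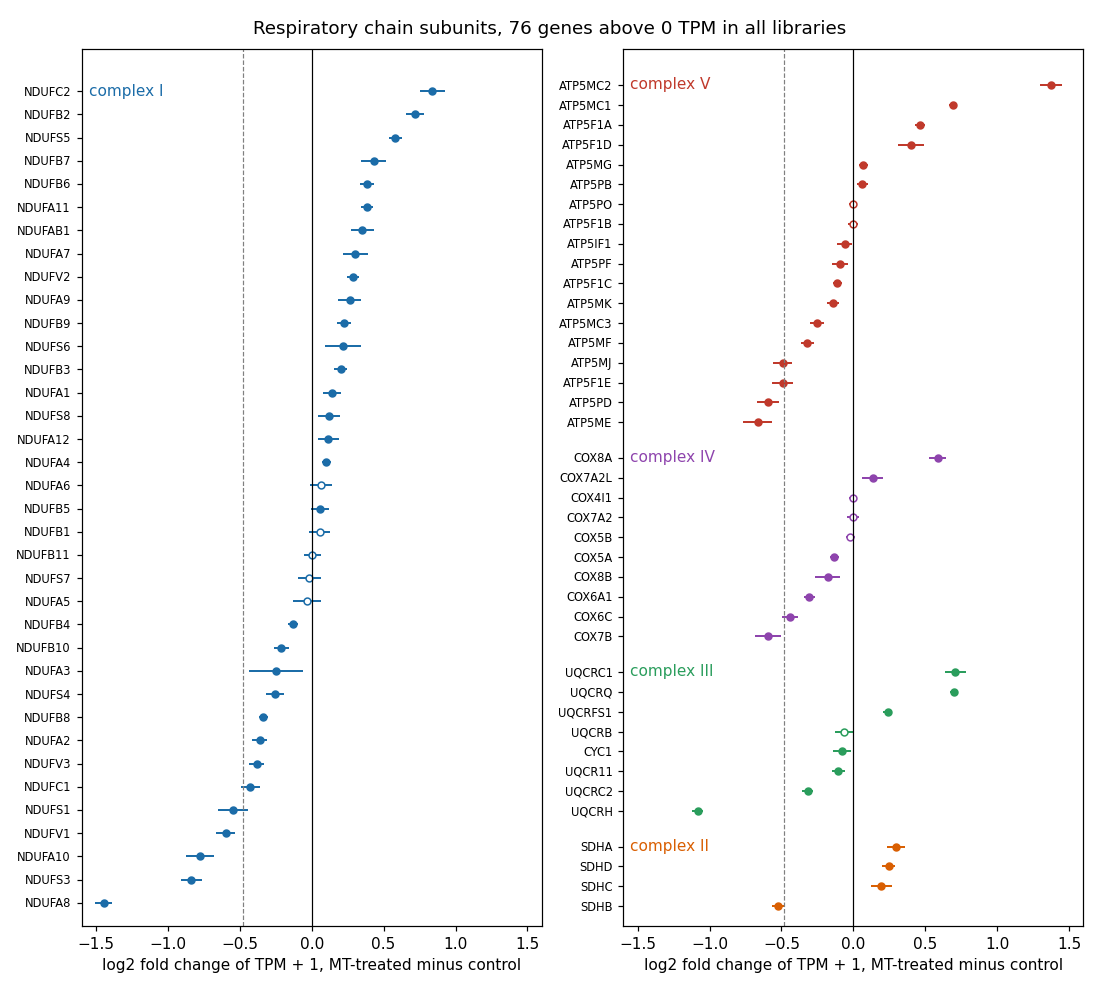
Log2 fold change of TPM + 1, MT-treated minus control (horizontal axis), with its 95% interval for 76 of the 77 subunits above 0 in all 6 libraries, ordered within each complex; filled points were called at an adjusted p under 0.05 and open points were not. The dashed line at -0.48 is where 0 falls after median centring. Genes between the lines, NDUFC1 and ATP5MF among them, lie below 0 as deposited and above 0 after centring, where NDUFC1 was not called. Genes left of the dashed line, such as NDUFA8 at -1.45 and UQCRH at -1.08, lie below 0 on both scales.

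In complex I, 18 of 37 tested subunits were higher, 14 lower and 5 not called, with a median log2 fold change of 0.060 that became 0.54 with 31 higher and 4 lower after median centring. Together the core subunits hold the flavin and the iron-sulfur clusters along which electrons run from NADH to ubiquinone, though not each of them binds one. Of the 6 described here, 3 were lower and 2 higher on the deposited scale, with 1 not called. NDUFS3, of the part next to the ubiquinone site, had the largest change of the 6, with 604, 581 and 607 TPM across the controls and 344, 328 and 329.6 TPM across the MT-treated pools. All MT-treated libraries were below all control libraries, a 1.79-fold lower mean (597 ± 14.3 against 334 ± 8.66 TPM, SD, n = 3) and a log2 fold change of -0.84 ± 0.026 (SE, limma adjusted p = 2.01e-07; -0.36 after median centring).

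NDUFV1, which binds the flavin and NADH, had 233, 229 and 239.8 TPM across the controls and 155, 151 and 156 TPM across the MT-treated pools, a log2 fold change of -0.60 ± 0.025 (adjusted p = 8.04e-07, -0.12 after median centring). Its direct partner in the NADH-oxidising tip, NDUFV2, moved the other way, with 517, 511 and 510.2 TPM in control and 625, 634 and 619 TPM after MT (log2 fold change 0.29 ± 0.013, adjusted p = 1.43e-06). The ratio of NDUFV1 to NDUFV2 within a library therefore went from 0.456 ± 0.0122 to 0.246 ± 0.00737, a pair chosen after the values were seen and given without a test. NDUFS1, the large iron-sulfur subunit of the same tip and the lowest of the 77 subunits above 0 in all libraries, had 48.9, 46.4 and 46.6 TPM in control and 33.3, 32.2 and 30.7 TPM after MT. It was lower on the deposited scale (-0.55, adjusted p = 1.49e-05) but lay at -0.067 after median centring, where it was not called.

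Another pair of core subunits differed less. NDUFS8, with a pair of iron-sulfur clusters, had 405, 399 and 412 TPM in control and 444, 423 and 454 TPM after MT and was higher by 0.12. NDUFS7, which holds the last cluster before ubiquinone, overlapped between the groups with 266, 259 and 266 TPM in control and 266, 249.7 and 266 TPM after MT, and its log2 fold change had a 95% interval of -0.090 to 0.055.

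Supernumerary subunits surround the core of complex I and are needed for its assembly and stability. NDUFA8, on the side of the membrane that faces the intermembrane space, had 368, 364 and 376 TPM across the controls and 137, 132 and 136 TPM across the MT-treated pools. It fell 2.74-fold in mean TPM, the largest fall of all 79 tested subunits, with a log2 fold change of -1.45 ± 0.021 (adjusted p = 5.48e-09) that was -0.97 after median centring. NDUFA10, of the membrane arm, had 368, 355 and 363 TPM in control and 211, 200.5 and 220.2 TPM after MT (-0.78, adjusted p = 1.6e-06; -0.30 after median centring).

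At the other end, NDUFC2, a membrane arm subunit, had 274, 271 and 262 TPM across the controls and 462, 500.0 and 485 TPM across the MT-treated pools, 1.79-fold more in the mean and 0.84 ± 0.033 on the log2 scale (adjusted p = 6.39e-07). Its neighbour NDUFC1 lay lower on the deposited scale, at 333 against 248 TPM, and at 0.053 after median centring. NDUFB2 had 246, 254 and 255 TPM in control and 407, 418 and 419.8 TPM after MT (0.72, adjusted p = 1.53e-07). NDUFS5, which like NDUFA8 is a small subunit of the intermembrane space side, had 348, 348 and 356 TPM in control and 529.8, 523 and 521 TPM after MT (0.58, adjusted p = 8.31e-08), so that subunits of the same face moved in opposite directions.

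By family, 6 of 12 tested NDUFA subunits other than NDUFA4 were higher, 4 lower and 2 not called, with log2 fold changes from -1.45 to 0.38 (NDUFA11). NDUFAB1, the acyl carrier protein that also serves mitochondrial fatty acid synthesis, was among the higher ones with 540.1 against 689 TPM. Of 11 NDUFB subunits 6 were higher, 3 lower and 2 not called, from -0.34 (NDUFB8) to 0.72 (NDUFB2). The 3 lower ones, NDUFB8, NDUFB10 and NDUFB4, were all higher after median centring, at 0.14, 0.27 and 0.35. NDUFA4, named as a subunit of complex I and since assigned to complex IV, was the most abundant gene counted here in complex I, with 2777, 2785 and 2753 TPM in control and 2972, 2999 and 2941 TPM after MT; its change was small, 0.10 ± 0.0096.

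Of the 5 complex I subunits that were not called, NDUFA5 had 618, 612 and 604 TPM in control and 613, 619 and 565 TPM after MT. NDUFA6 had 344, 362 and 348 TPM in control and 373, 372 and 355 TPM after MT, NDUFB1 had 790.0, 818 and 805 TPM in control and 837, 861 and 809 TPM after MT and NDUFB11 had 459.6, 445 and 450.5 TPM in control and 462, 442 and 457 TPM after MT. The groups overlapped in each, and the widest 95% interval, that of NDUFA5, ran from -0.12 to 0.060; after median centring all 5, NDUFS7 included, were higher, by 0.45 to 0.54.

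Complex II has 4 subunits, all nuclear, and it is the one complex that is also an enzyme of the citric acid cycle. Of these genes 3 were higher and 1 lower, with a median log2 fold change of 0.22 (0.70 after median centring). The subunit that stood apart was SDHB, which carries the iron-sulfur clusters between the flavin and ubiquinone, with 572, 558 and 569.5 TPM across the controls and 393, 394 and 393 TPM across the MT-treated pools. It fell by 1.44-fold in mean TPM (-0.52 ± 0.013, adjusted p = 7.14e-08; -0.045 after median centring). SDHA, the flavoprotein that oxidises succinate, rose with 113, 110.5 and 111 TPM across the controls and 137, 135 and 141 TPM across the MT-treated pools (0.30 ± 0.023, adjusted p = 2.25e-05).

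The membrane anchors SDHC and SDHD both rose, SDHC with 386, 375 and 363 TPM in control and 429.7, 420.2 and 437 TPM after MT (0.19, adjusted p = 0.000492). SDHD had 347, 342 and 343 TPM in control and 414, 408 and 403 TPM after MT (0.25, adjusted p = 7.06e-06). The levels of the 4 genes thus drew together: the ratio of SDHB to SDHA went from 5.07 ± 0.0368 to 2.86 ± 0.0684, and the SD of log2(TPM + 1) over the 4 genes from 0.997 ± 0.00081 to 0.787 ± 0.0131 (exact permutation test, two-sided, p = 0.1, the smallest that 3 libraries against 3 allow). The direction of all 4 was the same under the 4 scalings.

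Complex III had 3 higher, 4 lower and 1 uncalled subunit of 8, with a median log2 fold change of -0.070, and 7 higher and 1 lower after median centring. The lower one was UQCRH, the hinge protein at the docking site of cytochrome c, with 1350.1, 1324 and 1316 TPM across the controls and 622, 631 and 629 TPM across the MT-treated pools. Its 2.12-fold fall (-1.08 ± 0.013, adjusted p = 2.7e-09; -0.60 after median centring) was over 3 times larger on the log2 scale than that of any other subunit of the complex that was lower.

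The core proteins UQCRC1 and UQCRC2, which face the matrix and sit side by side in the complex, moved in opposite directions on the deposited scale. UQCRC1 had 233, 220.4 and 231 TPM in control and 373, 366 and 380.4 TPM after MT (0.71 ± 0.027, adjusted p = 5.54e-07). UQCRC2 had 344, 349.8 and 346 TPM in control and 279.9, 276 and 278 TPM after MT (-0.32 ± 0.014, adjusted p = 9.59e-07; 0.16 after median centring, where it turned higher). Whichever scaling by a library total or median was used, UQCRC1 was below UQCRC2 in control and above it after MT, with a ratio of 0.658 ± 0.025 and 1.34 ± 0.0229.

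Of the subunits that hold a redox centre, UQCRFS1, the Rieske iron-sulfur protein, rose with 745, 742 and 744 TPM in control and 869, 884 and 879 TPM after MT (0.24, adjusted p = 1.03e-06). CYC1, cytochrome c1, was lower by a small amount on the deposited scale, with 843, 835 and 858 TPM in control and 797, 783 and 824 TPM after MT (-0.078, adjusted p = 0.0134), and higher after median centring (0.40). Among small subunits UQCRQ, which borders the ubiquinone-binding cytochrome b, rose with 1077, 1067 and 1066 TPM in control and 1730.0, 1746 and 1740.0 TPM after MT (0.70 ± 0.0086, adjusted p = 2.87e-09).

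UQCR11, the smallest subunit, had 2072, 1996 and 2036 TPM in control and 1908, 1891 and 1878 TPM after MT (-0.10 as deposited and 0.38 after median centring). UQCRB, the most abundant gene of the complex in both groups, had 2114, 2115 and 2000.3 TPM in control and 1972, 2022 and 1972 TPM after MT and was not called (95% interval -0.12 to 0.00011; 0.42 after median centring).

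In complex IV, which reduces oxygen, 4 of 12 tested subunits were higher, 5 lower and 3 not called, with a median log2 fold change of -0.012, and 10 higher and 1 lower after median centring. Leaving out COX6B2 and COX7B2, which were at 0 in control, 2 were higher. COX8A, a small subunit of the membrane core, rose most among the genes above 0 in all libraries, with 1391, 1339.8 and 1373 TPM across the controls and 2091, 2007 and 2062 TPM across the MT-treated pools, 1.5-fold more in the mean (0.59 ± 0.021, adjusted p = 3.5e-07). COX7B, in turn, fell with 314, 323 and 303 TPM across the controls and 208, 214 and 199.9 TPM across the MT-treated pools (-0.59 ± 0.035, adjusted p = 4.87e-06; -0.12 after median centring).

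The 3 subunits that were not called were COX4I1, COX5B and COX7A2. COX4I1, the general isoform of the subunit through which ATP slows the enzyme, had 1679, 1676 and 1702 TPM in control and 1685, 1674 and 1692 TPM after MT, with the groups overlapping and a 95% interval of -0.025 to 0.021. COX5B, on the matrix side, had 2537, 2494 and 2516 TPM in control and 2476, 2496 and 2467 TPM after MT (95% interval -0.044 to 0.0020). COX7A2, the most abundant gene of the complex, had 4485, 4333 and 4378 TPM in control and 4345, 4434 and 4394 TPM after MT (95% interval -0.039 to 0.034). After median centring COX4I1 was higher by 0.48, COX5B by 0.46 and COX7A2 by 0.48.

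COX6C had 1946, 1960.2 and 1932 TPM in control and 1438, 1465 and 1397 TPM after MT, lower on the deposited scale (-0.44, adjusted p = 9.22e-07) and at 0.039 after median centring. COX6A1, the general isoform of its subunit, had 834, 842 and 827 TPM in control and 674, 681 and 668 TPM after MT (-0.31 as deposited and 0.17 after median centring). COX5A, a partner of COX4, lay at 3138 ± 35.8 and 2865 ± 17.8 TPM (-0.13 as deposited and 0.35 after median centring).

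Several subunits of complex IV come as isoforms that differ between tissues. COX6B2, an isoform of testis, was listed at 0 in each control library and had 13.1, 13.3 and 14 TPM after MT, and COX7B2, also of testis, was at 0 and had 16.3, 18.6 and 19.2 TPM. Their fitted log2 fold changes depend on the 1 TPM added before the logarithm, and no ratio of TPM is given against controls at 0. COX7A1, of heart and muscle, was at 0 in control and had 1, 0.66 and 0.82 TPM after MT, below the level needed for a test. COX4I2, of lung, and COX6A2, of heart and muscle, stood at 0 in all libraries.

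The table lists more than 1 isoform with a value above 0 for COX7A, COX7B and COX8. COX7B2 made up 8.01% ± 0.741 (SD, n = 3) of the COX7B family in MT-treated blastocysts, and being at 0 in control its share had to differ. COX8B, the muscle isoform, lay at 117, 112 and 117 TPM in control and 103, 97.7 and 105 TPM in MT-treated blastocysts. Its share of the COX8 family went from 7.77% ± 0.0582 to 4.72% ± 0.105, with the groups apart, as COX8A rose. COX7A2L, a relative of COX7A2 that joins complexes III and IV into supercomplexes, had 135, 137 and 129 TPM in control and 145, 149 and 147 TPM after MT (0.13, adjusted p = 0.00343). It made up 2.96% ± 0.103 of the COX7A family in control and 3.24% ± 0.013 after MT, and COX7A2 97.0% and 96.7%. The shares of COX7B2, COX7B and COX7A1 were fixed by the 0 in control and are given without a test. The other 7 shares, which are tied within a family because they add up to its whole, each gave p = 0.1 by the two-sided exact permutation test, the smallest possible, and 0.1 after adjustment over the 7.

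**Figure D4:**
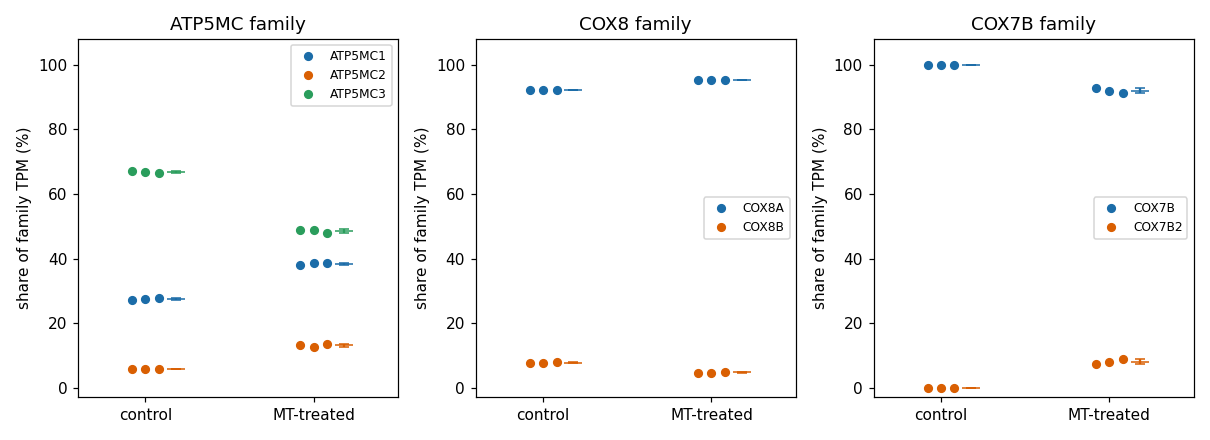
Share of each isoform in the summed TPM of its family (percent) in the 3 control and the 3 MT-treated libraries, for subunit c of complex V (ATP5MC), COX8 and COX7B; points are libraries and the bar beside them the mean with SD. ATP5MC3 went from 66.7% to 48.5% while ATP5MC1 and ATP5MC2 took larger shares, COX8B went from 7.77% to 4.72%, and COX7B2, at 0 in control, had 8.01% after MT.

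Complex V makes ATP in its F1 head in the matrix, driven by a ring of c subunits in the membrane. Of its 18 subunits 6 were higher, 10 lower and 2 not called, with a median log2 fold change of -0.078, and 14 were higher and 2 lower after median centring. The largest change was in subunit c, which 3 nuclear genes encode with the same mature protein and different import sequences. ATP5MC2 rose 2.6-fold in mean TPM with 408, 402 and 407 TPM across the controls and 1074, 1007 and 1078 TPM across the MT-treated pools (1.37 ± 0.028, adjusted p = 2.61e-08). ATP5MC1 had 1906, 1904 and 1927 TPM in control and 3101, 3091 and 3072 TPM after MT (0.69 ± 0.0080, adjusted p = 2.31e-09).

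ATP5MC3, the most abundant of the 3, was lower on the deposited scale with 4705, 4633 and 4614 TPM in control and 3977, 3906 and 3817 TPM after MT (-0.25 ± 0.017, adjusted p = 9.23e-06) and higher by 0.23 after median centring. As a share of the family, which total or median scaling leaves alone, ATP5MC3 went from 66.7% ± 0.312 to 48.5% ± 0.51, ATP5MC1 from 27.4% ± 0.292 to 38.4% ± 0.318 and ATP5MC2 from 5.82% ± 0.0296 to 13.1% ± 0.477. The family summed to 6969 ± 44.1 TPM in control and 8041 ± 97.5 TPM after MT (exact permutation test, two-sided, p = 0.1, 0.133 after adjustment over 4 families). How reads that fit more than 1 of these genes were counted is not stated in the sources used here, so the split between the 3 is less certain than their sum.

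Of the F1 head, ATP5F1A, the alpha subunit, rose with 822, 811 and 813 TPM across the controls and 1135, 1123 and 1115 TPM across the MT-treated pools (0.46 ± 0.011, adjusted p = 5.33e-08). ATP5F1B, the beta subunit that pairs with alpha in equal number and holds the catalytic sites, did not pass the test with 1787, 1758 and 1764 TPM across the controls and 1788, 1749 and 1758 TPM across the MT-treated pools (95% interval -0.033 to 0.025; 0.48 after median centring). The ratio of ATP5F1A to ATP5F1B went from 0.461 ± 0.00062 to 0.637 ± 0.00428, given without a test as above.

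The central stalk was also divided. ATP5F1D, its delta subunit, rose with 265, 252 and 268 TPM in control and 355, 334 and 347 TPM after MT (0.40, adjusted p = 2.95e-05). ATP5F1E, the epsilon subunit that binds to delta, was lower with 510.4, 536 and 539 TPM in control and 367, 378 and 380.3 TPM after MT (-0.49, adjusted p = 3.22e-06), a difference that median centring brought to -0.013 and below the call. ATP5F1C, the gamma subunit that turns in the head, had 988, 974 and 982 TPM in control and 905, 909.8 and 912 TPM after MT (-0.11 as deposited and 0.37 after median centring).

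In the peripheral stalk, which keeps the head from turning, ATP5PD stood out with 1789, 1830.3 and 1739 TPM across the controls and 1189, 1215 and 1144 TPM across the MT-treated pools (-0.59 ± 0.028, adjusted p = 1.77e-06; -0.11 after median centring). ATP5PO, the stalk subunit at the top of the head, had 2073, 2072 and 2053 TPM in control and 2071, 2045 and 2077 TPM after MT, with the groups overlapping and a 95% interval of -0.024 to 0.022, or 0.48 after median centring. ATP5PB was higher by 0.061, and ATP5PF had -0.095 on the deposited scale and 0.38 after median centring.

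Among the small membrane subunits that join ATP synthases into dimers and rows, ATP5ME fell 1.59-fold in mean TPM with 311, 314 and 314 TPM across the controls and 196, 208 and 187 TPM across the MT-treated pools (-0.66 ± 0.038, adjusted p = 4.62e-06; -0.19 after median centring). ATP5MG, its dimer-forming partner and the most abundant of all 83 genes, had 4937, 4867 and 4879.7 TPM in control and 5202, 5129.6 and 5081 TPM after MT, a change of 0.070 that was 0 under quantile normalization. ATP5MJ, ATP5MK and ATP5MF were lower on the deposited scale, with log2 fold changes of -0.49, -0.14 and -0.32, and ATP5MK and ATP5MF, but not ATP5MJ at -0.013, were higher after median centring. ATP5IF1, the inhibitor that stops the enzyme from running backwards, lay at 1336 ± 23.6 and 1281 ± 22.2 TPM (-0.060 as deposited and 0.42 after median centring).

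The summed level of each complex had a ratio of MT-treated to control of 0.959 to 1.01 as deposited, but of 1.34 to 1.41 after median centring. All 83 genes summed to 83652, 82902 and 82898 TPM in control and 81781, 81252 and 81157 TPM in MT-treated libraries, a ratio of 0.979 (exact permutation test, two-sided, p = 0.1 and 0.15 after adjustment over 6 sums). As a share of the listed TPM of a library this was 8.87% ± 0.0429 and 8.91% ± 0.0339, so the small difference in the sum turns to the other side with equal library totals. Complex I summed to 21547 ± 97.3 and 21730 ± 104 TPM (p = 0.2 by the exact permutation test), a difference whose sign turned with NDUFA4 counted in complex IV. As a share of the listed TPM, complex I had 2.30% ± 0.00975 in control and 2.38% ± 0.0113 after MT. There the groups did not overlap (p = 0.1 by the exact permutation test, 0.3 after adjustment). Complex III summed to 8675 ± 94.0 and 8576 ± 23.3 TPM (p = 0.2 by the exact permutation test, of the other sign with equal totals).

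Complex II summed to 1397 ± 18.3 and 1368 ± 9.75 TPM and complex IV to 16449 ± 150 and 16069 ± 28.1 TPM, both lower as deposited and higher with equal totals. Complex V had the largest sum and, as deposited, the largest difference, 35084 ± 89.2 and 33654 ± 285 TPM. Its ratio of 0.959 kept its direction with equal totals, where complex I differed more, and was 1.34 after median centring. For complexes II, IV and V the groups did not overlap as deposited, which gives the smallest possible p of 0.1 in the exact permutation test and 0.15 after adjustment.

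**Figure D5:**
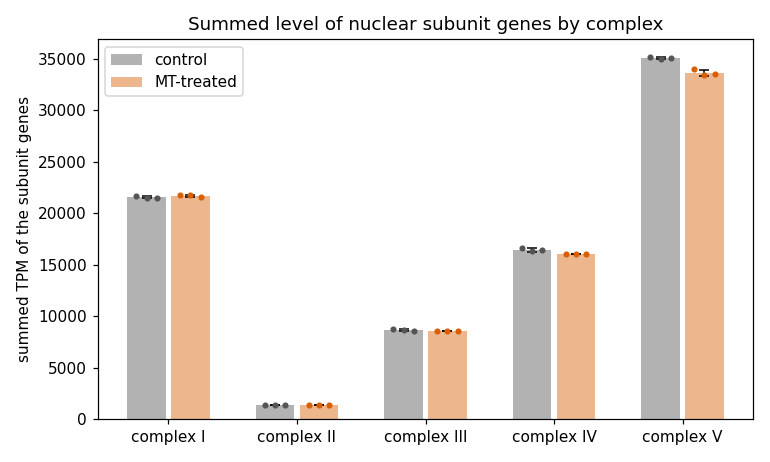
Summed TPM of the subunit genes of each complex (vertical axis, from 0) in control and MT-treated blastocysts; bars are means of 3 libraries, whiskers the SD and points the libraries. On this deposited scale the widest gap is complex V at 35084 against 33654 TPM; after median centring, not drawn, all 5 sums were higher in MT-treated blastocysts.

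Levels within a complex kept much of their order in complexes I, III, IV and V, with Spearman rho between the group means of 0.84, 0.81, 0.95 and 0.96 across 37, 8, 10 and 18 genes, and less in complex II, with 0.40 across 4 genes, where SDHB was the highest in control and below SDHC and SDHD after MT. These are descriptions across genes, which share libraries. Over the 77 subunits above 0 in all libraries, control levels ran from NDUFS1 at 47.3 TPM to ATP5MG at 4895 TPM, and after MT from the same NDUFS1 at 32.1 TPM to ATP5MG at 5138 TPM, both on the TPM scale per length. The median level over genes above 0 was highest in complex V in control (1778 TPM) and in complex IV after MT (1558 TPM), with complex V at 1361 TPM after MT and complex IV at 1527 TPM in control. It was 377 and 440.5 TPM in complex I, 359 and 401 TPM in complex II, and 958 and 839 TPM in complex III.

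The spread of levels within a complex, as the SD of log2(TPM + 1) over its members without tissue isoforms, was wider after MT in complexes I and IV and narrower in II, III and V. It went from 1.78 to 1.84 in complex I (1.08 to 1.19 without NDUFA4L2, which is at 0 in all libraries), from 1.14 to 1.08 in complex III, from 1.63 to 1.70 in complex IV and from 1.34 to 1.29 in complex V. Each had the groups apart and p = 0.1 in the exact permutation test, the smallest possible, and 0.1 after adjustment over 6.

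Further subunits of complexes I, III, IV and V are made in the mitochondrion, and 13 of these genes were in the table, all tested. On the deposited scale 9 were higher, 3 lower and 1 not called, where 61.6% of all tested genes were higher, 34.1% lower and 95.7% called in either direction, with a median log2 fold change of 0.24, and they summed to 73856 to 76142 TPM in control and 81257 to 83709 TPM after MT. ND5, of the proton-pumping arm of complex I, rose most, with 663, 666 and 656 TPM in control and 1179, 1205 and 1183 TPM after MT (0.84, adjusted p = 5.78e-09), followed by ND4 with 3017, 3036 and 2944 TPM in control and 4797, 4818 and 4678 TPM after MT (0.67, adjusted p = 6.22e-08). ATP8 was lower with 3064, 3122 and 2985 TPM in control and 2133, 2017 and 1925 TPM after MT (-0.60, adjusted p = 9.79e-06; -0.12 after median centring), and CYTB lower as deposited with 3812, 4017 and 3950.2 TPM in control and 2751, 2881 and 2814 TPM after MT (-0.48, adjusted p = 2.74e-06), with -0.00052 after median centring. ATP8 overlaps ATP6, and ND4L overlaps ND4, on the mitochondrial genome, so their split depends on how shared reads were counted. ND3 had -0.13 as deposited and 0.35 after median centring, COX3 was not called, and COX2, higher by 0.24, lay at 0 under quantile normalization.

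Assembly factors build the complexes without staying in them. For complex I, 12 of 18 tested factors were higher and 4 lower (61.6% and 34.1% among all tested genes), 8 and 3 of them by 2-fold or more (51% and 19.6% among all tested genes), and 7 of the higher ones were at 0 in all control libraries. Those 7 passed the filter through the MT-treated group alone and had to be at least 2-fold higher, as had the 33.8% of all tested genes at 0 in control, so these counts are a description. They included TMEM126B, of the membrane arm, NDUFAF5 and ACAD9, which after MT had 148, 144 and 147 TPM, 52, 51.2 and 50.2 TPM and 15.9, 15.5 and 15.8 TPM. The others were NDUFAF7, NUBPL, TMEM186 and NDUFAF1, with 13, 9.24, 6.73 and 1.67 TPM in the mean after MT. FOXRED1 went from 39.9, 39.7 and 40.2 to 4.67, 4.14 and 3.52 TPM (-3.01, adjusted p = 1.05e-07), and NDUFAF6 from 54.5, 55.8 and 53.4 to 12.4, 15 and 14.9 TPM (-1.89, adjusted p = 6.22e-07).

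For complex IV, 13 of 26 tested factor rows were higher and 12 lower, 7 and 5 of them by 2-fold or more, beside 61.6% and 34.1%, and 51% and 19.6%, among all tested genes. Of these rows 5 were at 0 in all control libraries and 1 at 0 in all MT-treated libraries, and their direction was fixed in the same way. COX10 and COX15, which make the heme A of the enzyme, were both at 0 in all control libraries, and after MT COX10 had 30.2, 28.1 and 31.8 TPM and COX15 14.6, 16.3 and 16.6 TPM. The copper chaperones went the other way, SCO1 from 22.2, 21.9 and 22.7 to 3.07, 3.7 and 3.31 TPM (-2.42, adjusted p = 5.67e-08) and SCO2 from 45.6, 41.8 and 43.1 to 7.12, 8.51 and 6.76 TPM (-2.40, adjusted p = 3.35e-07). COX20, which guides the COX2 protein, went from 259.9, 266 and 263 to 45.6, 37 and 41.2 TPM (-2.65, adjusted p = 1.07e-07), and HIGD2A, at 8.99, 11.3 and 13.1 TPM in control, was at 0 after MT.

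The other factors of this complex at 0 throughout control were COA4, COX18 and COA7, with 73, 23.5 and 6.23 TPM in the mean after MT. For the factors of complexes III, II and V the background is again 61.6% higher and 34.1% lower among all tested genes. Complex III had 5 higher and 3 lower of 9 tested factors. The lowest were UQCC1 (-0.84, adjusted p = 1.42e-07) and UQCC3 (-0.68, adjusted p = 7.9e-06), and the highest UQCC6 (1.24, adjusted p = 9.07e-07) and UQCC5, from 36, 36.5 and 37.5 to 82.4, 68.4 and 73.3 TPM (adjusted p = 1.15e-05). Complex II had 1 higher and 1 lower of 3, SDHAF3, fixed in direction by its 0 in control, with 16.8, 18 and 16.2 TPM after MT, and SDHAF2 with -0.15 as deposited and 0.33 after median centring. Complex V had 2 higher and 1 lower of 4: ATPAF1 (1.87, adjusted p = 8.35e-08) and ATPAF2 (1.65, adjusted p = 1.87e-07), which bring together the F1 head, rose, and TMEM70, which helps to form the c ring, fell (-0.84, adjusted p = 7.84e-08; -0.36 after median centring).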

How the data were processed

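RNA of bovine blastocysts was measured in 6 libraries, 3 control and 3 MT-treated. Per the study's methods, reads were filtered with fastp 0.20.1 and FastQC 0.11.9, aligned with STAR 2.7.9a and counted with featureCounts (Subread 1.6.3), and DESeq2 served the authors' own tests. The values deposited by the authors are TPM, with 2 decimals. How counts became TPM, and how reads that fit several genes were treated, are not given in the sources used here. The genome is ARS-UCD1.3 in the paper and ARS-UCD1.2 in the labels, and the library kit is Smart-seq2 in the paper and TruSeq in the labels. Depth is unknown from TPM alone, so counting error could not be computed.

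The labels gave the groups and replicate numbers. Per the paper the libraries of a group came from separate production runs, and each run held all treatments, so the groups can share runs. No source ties a run to a replicate number, and libraries were compared as unpaired. log2(TPM + 1) of genes with 1 TPM or more in 3 or more libraries (11953) was fitted with lmFit and eBayes with a trend (limma 3.58.1, R 4.3.3), with Benjamini-Hochberg adjustment over all of them and a threshold of 0.05. The fit was run on simulated data with 200 of 11953 genes changed, where 98.5% of these were recovered and 17 other genes were called. In the data 95.7% of tested genes were called, so the simulation does not cover that setting. Sums, spreads and isoform shares were compared by two-sided exact permutation tests. Other steps used matplotlib 3.10.9, pandas 2.3.3 and numpy 2.4.6 under Python 3.11.15. All 83 symbols were found in the RefSeq gene table given.

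The members, the gene lists and the rule for named genes were chosen with earlier results of these data known. 1 subunit is counted in the totals but not reported singly here. The rule gives library values for the complex I core, all of complex II, UQCRC1, UQCRC2, UQCRFS1, CYC1, COX4I1 and the F1 head, for subunits at 0 throughout 1 group with a mean of 1 TPM or more in the other, for the 3 highest and 3 lowest called log2 fold changes per complex among subunits above 0 everywhere with groups apart, for isoform families, for the most abundant subunit per complex and for those not called. Other lists of the pathway are given by counts with the 2 highest and 2 lowest called genes and genes at 0 throughout 1 group. Further genes, CYCS, TFAM and GABPB1 among them, were named after their values were seen. Alternatives were median centring, equal totals, quantile normalization, a minimum of 5 TPM, no filter, a pseudocount of 0.1, a replicate block, eBayes without a trend, leaving out single libraries, NDUFA4 in complex IV, members above 0 everywhere, and members without tissue isoforms and the inhibitor ATP5IF1. The genes of 100 TPM or more, the calls shared by 4 scalings, the sums after median centring and the spread without NDUFA4L2 were added after the data were seen.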

Additional observations from a re-analysis of the deposited data

How the results depend on the processing

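The pseudocount, the filter, the trend and the replicate block changed no direction of a subunit and left every count of higher or lower subunits within 1.5 times its value. Scaling changed most. In the labels, libraries of the groups share only a replicate number. The deviations of same-numbered libraries from their group means correlated at -0.011, -0.00068 and 0.059 over all tested genes. Over the tested subunits they correlated at -0.094, 0.59 and 0.38, where differently numbered libraries ran from -0.61 to 0.31. A replicate block left 76 of the 79 calls as they were and brought NDUFB1, NDUFA6 and UQCRB past the threshold. NDUFB5 (0.042 to 0.064) lost its call without any control library, without MT-treated replicates 1 or 2, without a filter and without the trend; ATP5IF1 (-0.048 to -0.060) without control replicates 1 or 2, MT-treated replicates 2 or 3 or the trend; NDUFA3 (-0.21 and -0.24) without MT-treated replicates 1 or 3; and CYC1 (-0.074) without MT-treated replicate 1. NDUFB1 (0.079), NDUFA6 (0.083 and 0.085), UQCRB (-0.088) and COX5B (-0.027 and -0.026) were called without 1 or 2 of the libraries. Depth was not weighed, because TPM holds no counts and the depth reported by the study was not used. Low genes at 0 in control cannot be told from genes that were not captured.

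With median centring, 65 subunits were higher and 9 lower, 10 at least 2-fold higher and 0 at least 2-fold lower at any p (the lowest, NDUFA8, lay at -0.97; limma). Higher and lower were 31 and 4 in complex I, 7 and 1 in complex III, 10 and 1 in complex IV, and 14 and 2 in complex V. Medians became 0.48 over all complexes and 0.54, 0.70, 0.41, 0.47 and 0.40 in complexes I to V. With quantile normalization they were 0.038 over all and 0.17, 0.38, -0.043, 0.034 and -0.015, and with equal totals 0.035 over all and 0.097, 0.26, -0.032, 0.026 and -0.040. With subunits above 0 in all libraries, or without tissue isoforms and ATP5IF1, 1 subunit was at least 2-fold higher and 2 of complex IV were higher, and with the former the complex IV median was -0.076. The cause of these moves is the shift each scaling applies and the subunits each set leaves out.

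Among the subunits reported singly, log2 fold changes that changed sign with median centring were, in complex I, 0.053 for NDUFC1, 0.097 for NDUFV3, 0.12 for NDUFA2, 0.14 for NDUFB8, 0.22 for NDUFS4, 0.23 for NDUFA3, 0.27 for NDUFB10, 0.35 for NDUFB4, 0.45 for NDUFA5 and 0.46 for NDUFS7. In complex III they were 0.16 for UQCRC2, 0.38 for UQCR11, 0.40 for CYC1 and 0.42 for UQCRB. In complex IV they were 0.039 for COX6C, 0.17 for COX6A1, 0.30 for COX8B, 0.35 for COX5A, 0.46 for COX5B, 0.48 for COX7A2 and 0.48 for COX4I1. In complex V they were 0.16 for ATP5MF, 0.23 for ATP5MC3, 0.34 for ATP5MK, 0.37 for ATP5F1C, 0.38 for ATP5PF, 0.42 for ATP5IF1, 0.48 for ATP5F1B and 0.48 for ATP5PO. Quantile normalization and equal totals turned the sign of NDUFA5 (0.030 and 0.0063), NDUFS7 (0.14 and 0.020), COX7A2 (0.038 and 0.035), COX4I1 (0.030 and 0.035), ATP5F1B (0.080 and 0.034) and ATP5PO (0.032 and 0.036). Quantile normalization alone turned COX8B (0.11), and equal totals alone COX5B (0.017).

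The difference in summed TPM turned with equal totals to 380.0 for all complexes, 7.13 for complex II, 125 for complex III and 42.3 for complex IV, and that of complex I to -16.1 with NDUFA4 in complex IV (exact permutation p between 0.2 and 0.8). With median centring, added after the data were seen, it was 25680.0 over all, 432 for complex II, 2778 for complex III, 5042 for complex IV and 10021 for complex V (exact permutation p = 0.1, the smallest possible). The spread within complexes and the isoform shares not fixed by a 0 in control kept their direction without any 1 library, and the spread also with equal totals, with a pseudocount of 0.1, with NDUFA4 in complex IV, without NDUFA4L2 and with subunits above 0 in all libraries; the other alternatives were not run on them. Leaving out each library in turn changed the sign of 7 uncalled subunits near 0, whose log2 fold changes then ran from -0.055 to 0.010 for NDUFA5, -0.033 to 0.012 for NDUFS7, -0.0090 to 0.024 for NDUFB11, -0.013 to 0.012 for COX7A2, -0.0061 to 0.0049 for COX4I1, -0.013 to 0.0033 for ATP5F1B and -0.0055 to 0.0058 for ATP5PO.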

Other observations

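Genes that feed the chain or control its transcription held differences of 2-fold or more: 5 higher and 6 lower of 15 carrier and ubiquinone genes, and 6 higher and 3 lower of 12 regulators, beside 51% and 19.6% among all tested genes. In each of the 2 lists 4 of the higher genes were at 0 in all control libraries, passed the filter through the MT-treated group alone and had to be at least 2-fold higher. Of the 15 tested genes for electron carriers, ubiquinone synthesis and ubiquinone-linked dehydrogenases, 7 were higher and 7 lower after MT as deposited, beside 61.6% and 34.1% among all tested genes, with COQ4, COQ6, DHODH and COQ8B listed at 0 in all control libraries. COQ4 and COQ6, of ubiquinone synthesis, had 50.5, 53 and 52.9 TPM and 52, 50.3 and 52.8 TPM after MT. DHODH, the pyrimidine synthesis enzyme that reduces ubiquinone, had 21.5, 21.3 and 20.6 TPM there. COQ9, which binds intermediates of ubiquinone, went from 39.7, 41.8 and 39.4 TPM in control to 0.2, 0.49 and 0.16 TPM after MT (-5.02, limma adjusted p = 2.32e-08), and PDSS2, which makes the tail of ubiquinone with PDSS1, from 14.2, 14.2 and 13.2 to 0.31, 0.37 and 0.31 TPM (-3.48, adjusted p = 2.72e-09). CYCS, cytochrome c, had 1376, 1407 and 1353 TPM in control and 1715, 1734 and 1672 TPM after MT (0.31, adjusted p = 8.78e-06).

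Of 12 tested regulators of respiratory gene transcription, 7 were higher and 5 lower on the deposited scale, with the same shares of 61.6% and 34.1% among all tested genes beside them. GABPA, which binds the promoters of many subunit genes, was at 0 in control and had 12.1, 10.6 and 12.1 TPM after MT, while GABPB1, the partner that activates transcription with it, went from 43.8, 43.3 and 41.5 to 4.63, 5.88 and 5.45 TPM (-2.80, adjusted p = 1.08e-07). NRF1, a factor of the same promoters, was at 0 in control and had 5.98, 3.71 and 5.44 TPM, and POLRMT, the mitochondrial RNA polymerase, 3.48, 3.83 and 4.03 TPM. PPARGC1A, a coactivator, was likewise at 0 in control with 1.05, 1.87 and 1.74 TPM after MT, and its relative PPARGC1B went from 18.2, 18.6 and 18.8 to 0.72, 0.81 and 0.74 TPM (-3.47, adjusted p = 1.53e-09). TFB1M, an rRNA methyltransferase of mitochondria, went from 86, 87.9 and 86.4 to 7.86, 8.56 and 8.95 TPM (-3.22, adjusted p = 5.6e-09), and TFAM, which packages mitochondrial DNA, from 82.5, 87.2 and 82.9 to 78.3, 80.5 and 76.8 TPM (-0.099 as deposited and 0.38 after median centring).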
